A study of Mus musculus with 20 samples.

Results

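The 43 genes described here encode the enzymes and carriers that take glucose through glycolysis to pyruvate and lactate, bring pyruvate into mitochondria and oxidise it in the tricarboxylic acid (TCA) cycle. They were listed by gene symbol with earlier results of these data known, and all 43 were found among the 34937 Ensembl genes counted in each embryo. RNA of single mouse 8-cell embryos collected at embryonic day 2.5 was compared between 9 Ehmt2Cntr embryos, which inherited G9a from the mother, and 10 Ehmt2Mat embryos, which did not. G9a, encoded by Ehmt2, is a histone methyltransferase that places dimethylation on lysine 9 of histone H3.

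All mothers carried Zp3-Cre, which is active only in the growing oocyte, so that a conditional Ehmt2 allele is lost in the egg and not in the rest of the mother. Control mothers were Ehmt2F/+ and mothers of Ehmt2Mat embryos were Ehmt2F/-, and all fathers were Ehmt2+/-. Thus all 19 embryos had a Cre-carrying mother and a heterozygous father, and the mothers of the mutants carried a null allele in all their cells as well. The mice were of mixed background. The embryo's own genotype was +/- in 3 and +/+ in 6 controls, and -/- (Ehmt2M/Z) in 5 and +/- (Ehmt2M/+) in 5 Ehmt2Mat embryos. Embryos of normal shape were picked for both groups, and the labels do not say which embryos shared a mother. The p-values below therefore measure the spread between single embryos, some of which may be littermates. A control embryo numbered 4 was not analysed here.

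Glycolysis splits glucose into pyruvate in a preparatory phase that spends ATP and a payoff phase that returns it. Pyruvate is either reduced to lactate and exchanged across the plasma membrane, or carried into the mitochondrion, where the pyruvate dehydrogenase complex turns it into acetyl-CoA for the TCA cycle. The cleavage-stage mouse embryo is known for living on pyruvate and lactate and for taking up little glucose until it approaches the blastocyst stage.

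Total counts were between 12985149 and 30053248 in controls and between 8231646 and 30602434 in Ehmt2Mat embryos, and levels are given as CPM, counts scaled to the library size after TMM normalization. In an embryo, 3 counts were worth between 0.0911 and 0.363 CPM. Ehmt2 itself had a lowest, median and highest level of 66.6, 133 and 253 CPM in controls and 58.7, 94.9 and 159 CPM in Ehmt2Mat embryos (log2 fold change -0.47 ± 0.24 (SE), edgeR, adjusted p = 0.23). Counts over the whole gene do not report the deleted exons, so this is no check of the deletion. The 8 markers of the 8-cell embryo were all detected in each group, Ooep at no more than 7.37 CPM, with a summed level of 2102 to 3486 CPM in controls and 3044 to 4000 CPM in mutants. Dppa3 alone had 1261 to 2623 CPM in controls and 1970 to 2872 CPM in mutants. Of these markers, Tead4 (log2 fold change 0.90, edgeR, adjusted p = 0.0046) and Tfap2c (0.75, adjusted p = 0.018) were higher in mutants. Klf5 was lower (-1.49, adjusted p = 0.00049). Of the 7 cumulus and granulosa cell markers, 4 (Amh, Ptx3, Has2 and Fshr) were at 0 in every embryo, and the list summed to between 0 and 5.02 CPM in controls and between 0 and 38.2 CPM in mutants. The 5 blood and 4 sperm markers summed to at most 9.33 and 1.23 CPM. The 3 oviduct markers summed to between 0.0904 and 382 CPM in controls and between 9.6 and 2829 CPM in mutants, nearly all of it from Ovgp1, an oviduct glycoprotein, and values without the embryos high in Ovgp1 are given below where they differ most.

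Transcripts for pyruvate oxidation and the TCA cycle had higher levels per length in these embryos than most of those for glycolysis. To compare genes with each other, CPM were divided by exon length in kb, which gives RPKM, and because the cDNA was amplified with a bias towards the 3′ end, these levels rank genes only roughly. Over all 19 embryos the members with the highest mean level were Pdha1 (188 RPKM ± 70.9 (SD, n = 19)) and Pdhb (176 ± 46.8), which encode the first component of pyruvate dehydrogenase, Mdh2, the mitochondrial malate dehydrogenase (156 ± 38.6), Idh3g, a subunit of the NAD-dependent isocitrate dehydrogenase (84.7 ± 30.5), and Cs, citrate synthase (79.6 ± 29.0). The lowest were Gapdh, glyceraldehyde-3-phosphate dehydrogenase (0.0335 ± 0.0777), Slc16a3, a lactate exporter of glycolytic cells (0.262 ± 0.317), Eno1, enolase (0.652 ± 0.576), Pfkm, the muscle subunit of phosphofructokinase (0.740 ± 1.09), and Slc2a1, a glucose transporter (0.841 ± 1.34). A mean above 10 RPKM was reached by 3 of the 20 members from glucose entry to lactate, namely Aldoa, Ldhb and Slc16a1, and by 14 of the 23 members from pyruvate entry to the TCA cycle, a set that includes the cytosolic Idh1 and Mdh1. Of the exon bases of Pdha1, 16.2% lie in Map3k15 as well, and reads there were counted for both genes. The median over members was 1.98 RPKM from glucose entry to lactate and 25.6 RPKM from pyruvate entry to the TCA cycle. These medians depend on the make-up of the list. The first set holds less abundant relatives of other members, such as Slc2a1, Hk2, Pfkm, Aldoc, Ldha and Slc16a3. The second holds some too, such as Mpc1, Suclg2 and Mdh1. Gapdh is counted in the first median, although its level cannot be read, as described below. Members with at least 20% of their sequence shared with other genes, described below, lie mostly in the first set. They are Eno1, Gapdh, Gpi1, Ldhb, Pgam1, Pgk1 and Pkm there, against Mpc1 and Pdhb in the second. How much the shared sequence and the make-up of the list add to the gap in levels was not tested. As a sum, the 43 members took a lowest, median and highest of 3332, 3591 and 5177 CPM in controls and 2894, 3559 and 4569 CPM in Ehmt2Mat embryos, and the groups overlapped.

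**Figure D1:**
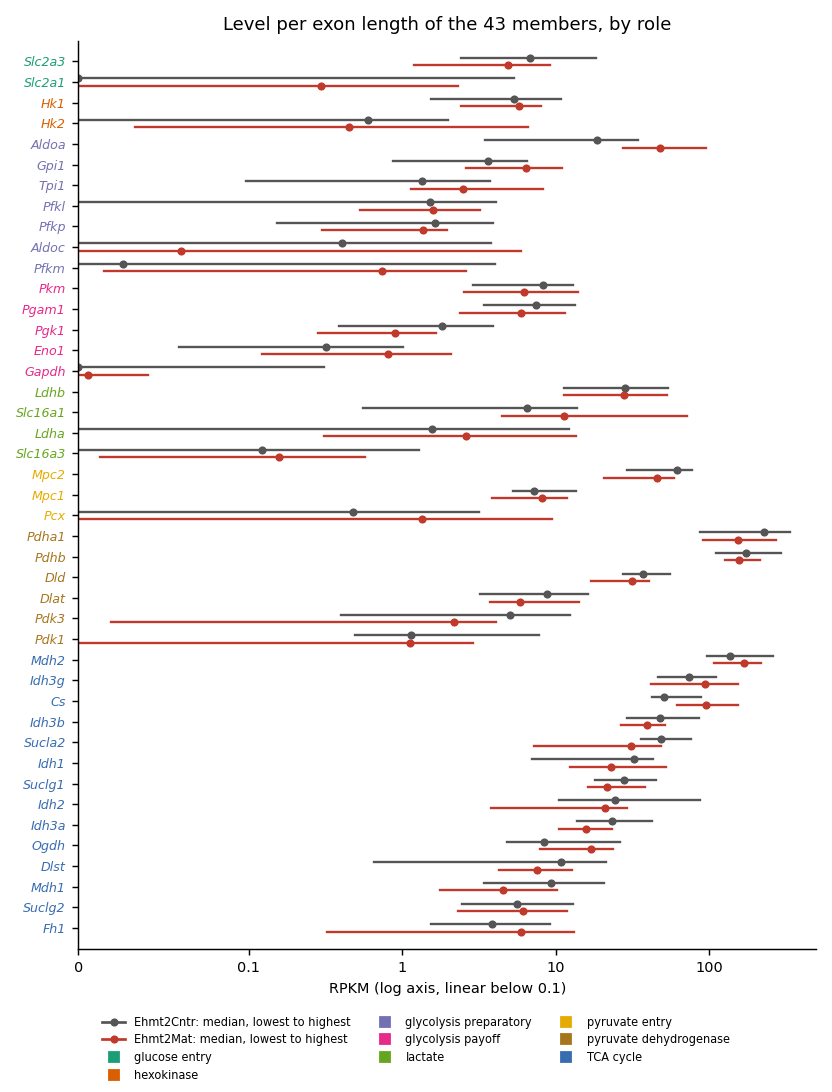
Level of each of the 43 members in RPKM (log axis, linear below 0.1) in 9 Ehmt2Cntr (grey) and 10 Ehmt2Mat (red) embryos, with the dot at the group median and the line from the lowest to the highest embryo, and names coloured by role. Pyruvate dehydrogenase and TCA cycle genes reach a mean of up to 188 RPKM, and Gapdh lies at 0.0335 RPKM.

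Some of the lowest levels, such as those of Gapdh and Eno1, belong to genes whose sequence recurs in other genes, so that many of their 50-base reads have no unique origin. Of all 50-base stretches of its protein-coding transcripts, the share that occurs unchanged in a transcript of another gene was 68.0% for Pgk1, 58.4% for Gapdh, 49.5% for Eno1 and 41.5% for Pgam1. It was at least 20% for 9 members, the other five being Pdhb, Mpc1, Gpi1, Pkm and Ldhb, while 19 members had no such stretch even with 1 mismatch allowed. Gapdh, often used as a reference gene, had 0 counts in 10 of the 19 embryos and at most 22 counts, and it reached 1.27 CPM in controls and 0.168 CPM in mutants, with medians of 0 and 0.0243 CPM. Whether reads from the shared stretches were lost or counted elsewhere was not tested, so no level of Gapdh RNA is read from these counts. Of the copies themselves, Pgk1-rs7 had at most 1 count and Eno1b at most 4 counts in any embryo. The stretches shown next are 50 bases of the reading frame, the length of a read, in a member and in a copy of it, with a capital where the pair differs.
Gapdh, frame positions 1 to 50 of 1002: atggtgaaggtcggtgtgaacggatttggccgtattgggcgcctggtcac
Gm7336: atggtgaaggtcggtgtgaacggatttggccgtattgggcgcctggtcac
Pgk1, frame positions 2 to 51 of 1254: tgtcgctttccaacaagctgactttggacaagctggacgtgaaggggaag
Pgk1-rs7: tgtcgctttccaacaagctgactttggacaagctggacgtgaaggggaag
Ldhb, frame positions 66 to 115 of 1005: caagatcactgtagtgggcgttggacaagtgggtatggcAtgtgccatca
Gm5514: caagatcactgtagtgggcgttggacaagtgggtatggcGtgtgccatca
The Gapdh stretch is identical in 35 other genes and the Pgk1 stretch in 2, whereas the Ldhb stretch is set apart from its copy by a single base.

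The comparison of Ehmt2Mat with Ehmt2Cntr embryos asks whether loss of maternal G9a alters RNA levels at the 8-cell stage. No control was -/- and no Ehmt2Mat embryo was +/+. Outside the +/- embryos, maternal loss therefore cannot be told apart from the embryo's own genotype. All members but Gapdh and Pfkm passed the filter on low counts, and 2 of these 41 were called at an adjusted p under 0.05 by edgeR's quasi-likelihood test, Aldoa and Cs, both higher in Ehmt2Mat embryos. This compares with 9.35% of all 11754 genes tested (4.37% higher and 4.98% lower), so the share called among the members was not above that of genes at large. No member was lower at that threshold in the same test. DESeq2, which called 1775 genes or 15.1% of those tested, called 3 members higher (Aldoa, Cs and Slc16a1) and 2 lower (Sucla2 and Idh3a). In simulated data for this comparison, 18.1% of DESeq2 calls were false where genes changed 2-fold, against 3.23% of edgeR calls. With 4-fold changes the shares were 14.5% and 5.79%. The simulated data were a single draw with edgeR's own dispersions. In the 2-fold case, 193 of 11278 genes were changed, and edgeR made 31 calls. Many more genes were called in the embryos, so these shares need not hold for the calls above. At an unadjusted p under 0.05 there were 5 members higher and 6 lower, or 26.8% of those tested, beside 23.3% of all genes. The median log2 fold change was -0.19 over the members and -0.04 over all genes, and 25 of the 41 members had a negative value beside 52.4% of all genes. Each library holds a whole embryo, so a change in some blastomeres and a change in all of them cannot be told apart. In none of the 43 members did the groups separate completely, which 0.519% of all genes did. Without the filter, in which 5.67% of all genes were called, Aldoa and Cs were again the members called, and with a log2 fold change of at least 1 also required (5.67% of the genes tested) Aldoa was.

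**Figure D2:**
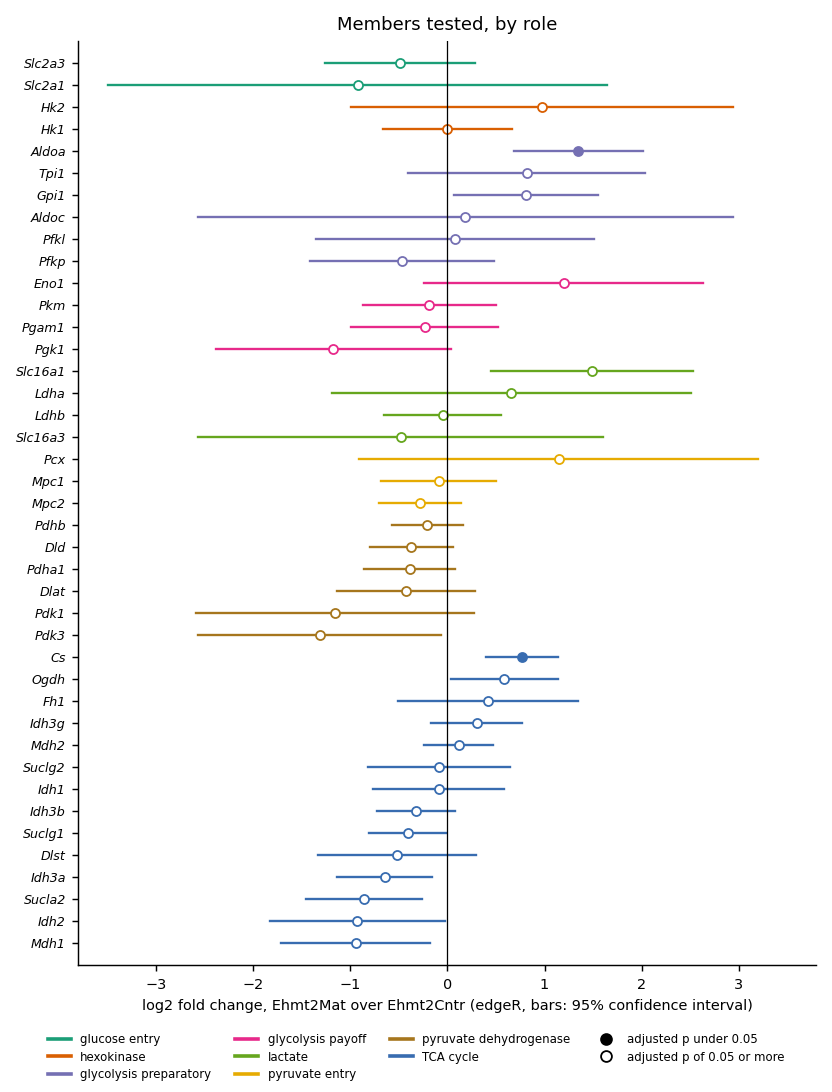
Log2 fold change of Ehmt2Mat over Ehmt2Cntr for the 41 members tested, coloured by role, with bars for the 95% confidence interval and filled dots for an adjusted p under 0.05 (edgeR). Aldoa at 1.35 and Cs at 0.77 are the filled dots, all 6 members of the pyruvate dehydrogenase group lie left of 0, and members with few counts have the widest bars.

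Within glycolysis, the preparatory phase held the call. Aldoa encodes aldolase A, which cleaves fructose 1,6-bisphosphate into a pair of triose phosphates (ENSMUSG00000030695, GRCm38 chr7:126795234-126800751, minus strand). Its lowest, median and highest levels were 9.49, 51.5 and 94.3 CPM in controls and 76.0, 131 and 262 CPM in Ehmt2Mat embryos. All 10 mutants lay above the control median and 8 of 10 above every control. Its log2 fold change was 1.35 ± 0.32 (SE; 95% confidence interval 0.69 to 2.01; edgeR, adjusted p = 0.0093). Part of its sequence recurs in copies (8.46% of its 50-base stretches unchanged), among them Aldoart1, which had 5 to 318 counts per embryo and a log2 fold change of 1.45 ± 0.55 (adjusted p = 0.097). Without the 5 embryos above 300 CPM of Ovgp1 (control 10 and mutants 1 to 4), the log2 fold change of Aldoa was 1.28 and its adjusted p 0.062, in a fit that called 465 genes (3.98%) where all 19 embryos gave 1099. Among embryos of zygotic genotype +/- only (3 and 5), it was 1.36 with an adjusted p of 0.66, in a fit that called 1 gene in all (0.00746%).

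The other members of that phase did not pass the test. Gpi1, which isomerises glucose 6-phosphate, had 3.92, 16.2 and 29.2 CPM in controls and 11.6, 28.9 and 49.1 CPM in mutants (log2 fold change 0.81 ± 0.36, adjusted p = 0.17), and 16.5% of its exon bases lie in another gene as well. Tpi1, triose phosphate isomerase, had medians of 3.68 and 6.86 CPM (0.82 ± 0.59, adjusted p = 0.45). The phosphofructokinase subunits Pfkl and Pfkp, which commit the sugar to glycolysis, had log2 fold changes of 0.07 and -0.47, each with an interval spanning 0. Pfkm was too sparse to be tested, with 0, 0.0769 and 11.8 CPM in controls and 0.0435, 2.18 and 7.63 CPM in mutants. Aldoc, the brain-type aldolase, was at 0 in 2 controls and 3 mutants and reached 19.4 CPM (log2 fold change 0.18 ± 1.33).

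Steps before and after that phase had no call. Slc2a3, the leading glucose transporter among the members, had 17.4, 49.4 and 132 CPM in controls and 8.61, 35.6 and 66.3 CPM in Ehmt2Mat embryos (log2 fold change -0.49 ± 0.37, adjusted p = 0.48). Slc2a1 had no count in 5 of 9 controls and 1 of 10 mutants, yet its highest embryo was a control at 18.7 CPM, so that its fitted value of -0.92 ± 1.25 (adjusted p = 0.73) goes against the group medians of 0 and 1.03 CPM. The highest mutant was at 8.05 CPM. Hk1, the hexokinase that traps glucose in most cells, was close to level between the groups, with a log2 fold change of 0.00 and a 95% interval of -0.67 to 0.67. Hk2, its inducible relative, had medians of 3.56 and 2.69 CPM and one mutant at 39.6 CPM (0.97 ± 0.95), and without mutant 2 its value was 0.20 ± 0.95.

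In the payoff phase, Pgk1, phosphoglycerate kinase, had 0.869, 4.07 and 8.76 CPM in controls and 0.633, 2.02 and 3.69 CPM in mutants, where all 10 lay below the control median (log2 fold change -1.17 ± 0.59, adjusted p = 0.23). Eno1 had 0.316, 1.72 and 5.44 CPM in controls and 0.659, 4.32 and 11.2 CPM in mutants (1.20 ± 0.70, adjusted p = 0.32), and 0.52 ± 0.88 without the 5 embryos above 300 CPM of Ovgp1. Pgam1, phosphoglycerate mutase, and Pkm, pyruvate kinase, had log2 fold changes of -0.24 and -0.19. The 4 members tested in this phase are all among the 9 with much shared sequence.

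At the lactate step, Slc16a1, a monocarboxylate transporter that moves lactate and pyruvate across the plasma membrane, had the highest log2 fold change of the 41 members tested but did not pass the test. Its levels were 2.44, 28.7 and 61.3 CPM in controls and 19.7, 50.2 and 318 CPM in Ehmt2Mat embryos. The high end was mutant 2 alone, with the next mutant at 67.2 CPM, and 4 controls lay below every mutant. The log2 fold change was 1.49 ± 0.50 (95% confidence interval 0.45 to 2.53, adjusted p = 0.062), and DESeq2 called it (adjusted p = 0.015). Over the edgeR fits that left out an embryo, it lay between 0.84 without mutant 2 (adjusted p = 0.22) and 1.75 without control 10 (adjusted p = 0.032), passed also without mutant 9 (adjusted p = 0.049) and missed the threshold in the other fits. It passed too where genes needed at least 10 counts in every embryo (adjusted p = 0.035), a fit that called 19.2% of its genes. Ldhb, the lactate dehydrogenase subunit typical of tissues that consume lactate, was nearly level, with medians of 44.2 and 43.6 CPM (log2 fold change -0.05, 95% interval -0.65 to 0.56). Ldha, the subunit typical of tissues that make lactate, spanned 0 to 36.1 CPM in controls and 0.923 to 40.3 CPM in mutants (0.66 ± 0.90). Slc16a3 had 0, 0.651 and 6.78 CPM in controls, 3 of them at 0, and 0.0659, 0.834 and 3.04 CPM in mutants (-0.48 ± 1.01, adjusted p = 0.84).

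Pyruvate's way into the cycle had no call, although most of its genes had lower medians in the mutants. Mpc2, which forms the mitochondrial pyruvate carrier with Mpc1, had 215, 453 and 565 CPM in controls and 151, 334 and 430 CPM in mutants, all 10 of them below the control median (log2 fold change -0.28 ± 0.20, adjusted p = 0.44). Mpc1, with 15.7% of its exon bases in another gene too, was at -0.09 ± 0.29. Pcx, pyruvate carboxylase, which replenishes oxaloacetate, was at 0 in 2 controls and 1 mutant and had medians of 2.03 and 5.70 CPM (1.15 ± 1.00). All 6 members of the pyruvate dehydrogenase group had a negative log2 fold change, with a median of -0.41, and none passed the test. Pdha1 had 323, 856 and 1264 CPM in controls and 342, 578 and 1025 CPM in mutants (-0.39 ± 0.23, adjusted p = 0.32). Pdhb had 164, 259 and 434 CPM in controls and 188, 233 and 319 CPM in mutants (-0.21 ± 0.18, adjusted p = 0.53). Dlat, the acetyltransferase core of the complex, and Dld, the dehydrogenase it shares with the oxoglutarate complex, had log2 fold changes of -0.43 ± 0.35 and -0.37 ± 0.21. Pdk3, a kinase that switches the complex off, had 1.02, 12.8 and 31.9 CPM in controls and 0.0487, 5.57 and 10.4 CPM in mutants, with all 10 mutants below the control median (-1.32 ± 0.61, adjusted p = 0.19). Pdk1, a related kinase, had medians of 8.81 and 8.72 CPM and a highest embryo of 60.1 CPM in controls (-1.16 ± 0.69, adjusted p = 0.33).

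The TCA cycle, the largest role group, had 1 member called of 14, beside 9.35% of all genes tested. At an unadjusted p under 0.05 (edgeR) it had 2 members higher and 5 lower, beside 23.3% of all genes. No test over the group was run. Cs encodes citrate synthase, which joins acetyl-CoA to oxaloacetate at the entry to the cycle (ENSMUSG00000005683, GRCm38 chr10:128337832-128362479, plus strand). Its lowest, median and highest levels were 121, 144 and 249 CPM in controls and 174, 269 and 437 CPM in Ehmt2Mat embryos. All 10 mutants lay above the control median, 7 above every control, and 5 controls lay below every mutant. The log2 fold change was 0.77 ± 0.18 (95% confidence interval 0.39 to 1.14, edgeR, adjusted p = 0.0086), and it was 0.70 (adjusted p = 0.049) without the 5 embryos above 300 CPM of Ovgp1. Among +/- embryos only, it was 0.72 with an adjusted p of 0.80. The sequence of Cs recurs in Csl, a citrate synthase-like gene with 107 to 789 counts per embryo, which was itself called higher (1.07 ± 0.28, adjusted p = 0.016), and 4.00% of the 50-base stretches of Cs occur unchanged in another gene.

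Sucla2, the ADP-specific subunit of succinyl-CoA synthetase, had 143, 192 and 302 CPM in controls and 28.9, 124 and 193 CPM in Ehmt2Mat embryos. Here 6 of 10 mutants lay below every control, and the mutants were more spread out, with an SD on log2(CPM + 1) of 0.95 against 0.34 in controls. Its log2 fold change was -0.86 ± 0.29 (95% confidence interval -1.46 to -0.26, adjusted p = 0.061), DESeq2 called it lower (adjusted p = 0.027), and edgeR did so without mutant 8 (adjusted p = 0.035). Idh3a, the catalytic subunit of the NAD-dependent isocitrate dehydrogenase, had 32.9, 55.7 and 102 CPM in controls and 25.1, 38.1 and 55.9 CPM in mutants, with 4 mutants below every control. It was at -0.65 ± 0.24 (adjusted p = 0.084) and just passed in DESeq2 (adjusted p = 0.049). Among +/- embryos only, the log2 fold change was -0.28 ± 0.42 for Sucla2 (adjusted p = 0.98) and -0.02 ± 0.40 for Idh3a (adjusted p = 0.997). Its partner subunits had values on either side of 0, Idh3b of -0.32 ± 0.20 and Idh3g of 0.30 ± 0.23 (adjusted p = 0.48). The levels of Idh3g were 125, 199.6 and 300.3 CPM in controls and 112, 256 and 419 CPM in mutants.

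**Figure D3:**
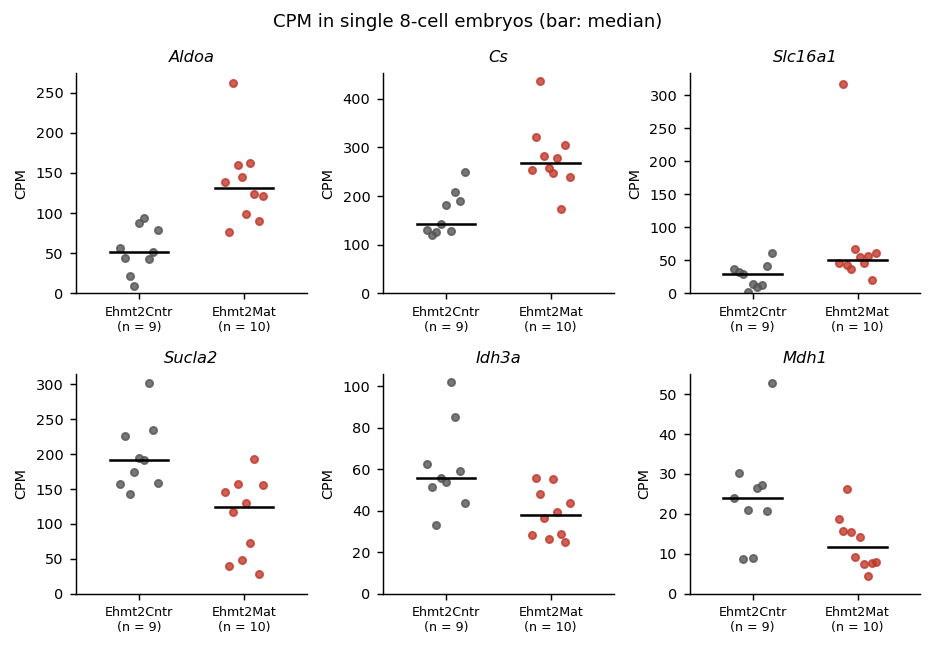
CPM of 6 members in each of 9 Ehmt2Cntr (grey) and 10 Ehmt2Mat (red) embryos, with a bar at the group median and every axis starting at 0. For Aldoa and Cs the mutants sit above the control medians of 51.5 and 144 CPM, for Sucla2 6 mutants sit below every control, and for Slc16a1 a single mutant stands at 318 CPM.

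Of the remaining TCA members, Mdh1, the cytosolic malate dehydrogenase, had 8.74, 24.0 and 52.7 CPM in controls and 4.52, 11.6 and 26.2 CPM in mutants, with 4 mutants below every control (log2 fold change -0.95 ± 0.37, adjusted p = 0.12). Mdh2 had 345, 488 and 923 CPM in controls and 382, 598 and 773 CPM in mutants (0.11 ± 0.17, 95% interval -0.24 to 0.47, adjusted p = 0.76). Ogdh, the first component of the oxoglutarate dehydrogenase complex, had 26.4, 45.8 and 143 CPM in controls and 42.9, 92.0 and 129 CPM in mutants (0.59 ± 0.27, adjusted p = 0.19). The control at 143 CPM was embryo 6, without which Ogdh was called higher (0.86 ± 0.23, adjusted p = 0.026). Dlst, the core of the same complex, was at -0.52 ± 0.40. Idh2, the mitochondrial NADP-dependent isocitrate dehydrogenase, spanned 27.2 to 225 CPM in controls and 9.84 to 76.0 CPM in mutants (-0.93 ± 0.44, adjusted p = 0.20) and was at -1.60 ± 0.55 without the 5 embryos above 300 CPM of Ovgp1 (adjusted p = 0.11), while Idh1, its cytosolic counterpart, was at -0.09 ± 0.33. Suclg1, the subunit that both forms of succinyl-CoA synthetase share, was at -0.41 ± 0.19 (adjusted p = 0.20) and Suclg2, the GTP-specific subunit, at -0.09 ± 0.35. Fh1, fumarase, spanned 5.21 to 31.3 CPM in controls and 1.09 to 44.3 CPM in mutants (0.42 ± 0.45).

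Members not called could also move with the choice of embryos, and 15 of the 41 shifted by more than 1.5-fold in at least 1 alternative fit. Without the Ovgp1-rich embryos, Ldha went from 0.66 to -0.17 and Pcx from 1.15 to 0.29. Ldha was at 1.44 without control 10, Pcx at 0.45 without mutant 3, Slc16a3 at 0.23 without control 1 and Slc2a1 at -0.02 without control 7. With sex as a covariate at 1 CPM, Ldha was at 1.70, Pcx at 2.67, Aldoc at 0.92 and Slc2a1 at -1.61, and at 10 CPM Ldha was at 1.43 and Pcx at 2.33. Among +/- embryos only, Dlat was at 0.88, Idh1 at 1.01, Pfkl at -0.72, Pgk1 at -0.28, Pdk1 at -2.67 and Pcx at 0.27. None of these passed the test.

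In most families with several isozymes or carriers, the same member led in nearly every embryo of both groups. Measured as a share of the summed RPKM of the pair, Slc2a3 over Slc2a1, Aldoa over Aldoc, Ldhb over Ldha, Slc16a1 over Slc16a3, Mpc2 over Mpc1 and Mdh2 over Mdh1 were each above 50% in all 19 embryos. Ldhb made up a median of 95.7% of the lactate dehydrogenase pair in controls (58.4 to 100%) and 90.5% in mutants (50.8 to 98.8%). Mdh2 made up 94.1% (86.7 to 97.6%) and 97.4% (94.3 to 98.9%) of the malate dehydrogenases. Hk1 led Hk2 in 18 of 19 embryos, the exception being a mutant at 26.6%. Sucla2 was above 50% of Sucla2 and Suclg2 in 18 of 19 embryos too, with a median of 90.7% in controls and 82.4% in mutants. No such order held for isocitrate dehydrogenase, where Idh1 exceeded Idh2 in 4 of 9 controls and 5 of 10 mutants. Among phosphofructokinase subunits, Pfkl made up 33.3% and Pfkp 42.9% in the median control, and Pdk3 exceeded Pdk1 in 13 of 19 embryos.

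**Figure D4:**
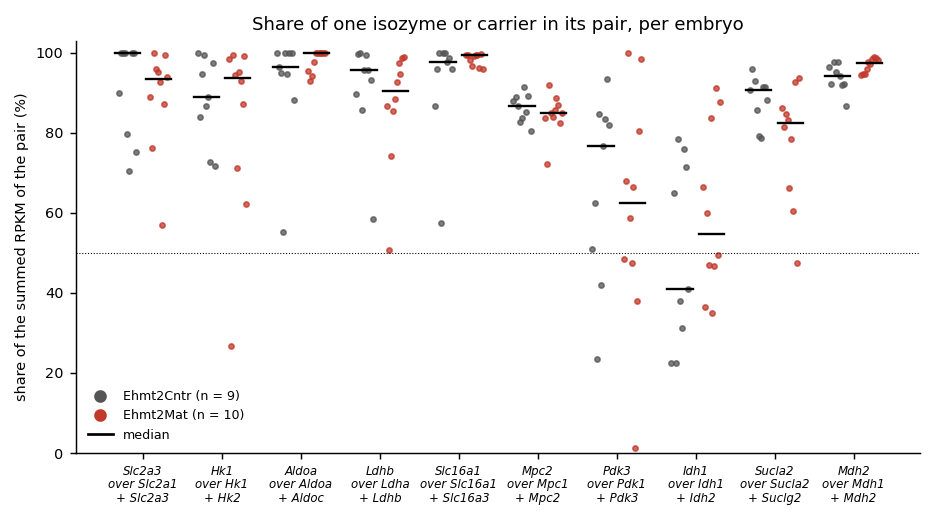
Share (%) of the named gene in the summed RPKM of its pair, in each of 9 Ehmt2Cntr (grey) and 10 Ehmt2Mat (red) embryos, with a bar at the median and a dotted line at 50%. Mdh2 keeps to between 86.7 and 98.9%, whereas Idh1 and Pdk3 are spread over most of the axis.

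The groups differed in their balance of sexes, and 4 members are X-linked. By summed counts of 4 Y-linked genes above 10 CPM, 5 of 9 controls and 8 of 10 Ehmt2Mat embryos were male (9 of 10 at a limit of 1 CPM). Pdha1 had a median of 677 CPM in male and 923 CPM in female controls, and 578 and 790 CPM in male and female mutants, with overlapping ranges. Idh3g had medians of 192 and 224 CPM in control males and females and of 218 and 360 CPM in mutant males and females. For Pdk3 the medians were 12.8, 10.8, 4.34 and 8.74 CPM in the same order. Pgk1 had lower medians in mutants of either sex, 4.07 and 3.92 CPM in controls and 2.07 and 1.62 CPM in mutants. With sex at 10 CPM as a covariate, none of the 4 passed the test in edgeR, and Aldoa (1.27, adjusted p = 0.013) and Cs (0.81, adjusted p = 0.0083) remained called. In that fit, which called 10.4% of all genes, Idh3a was called lower (-0.75 ± 0.23, adjusted p = 0.039). With the limit at 1 CPM (9.94% of all genes called), Sucla2 was called lower too (-1.13 ± 0.32, adjusted p = 0.025).

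**Figure D5:**
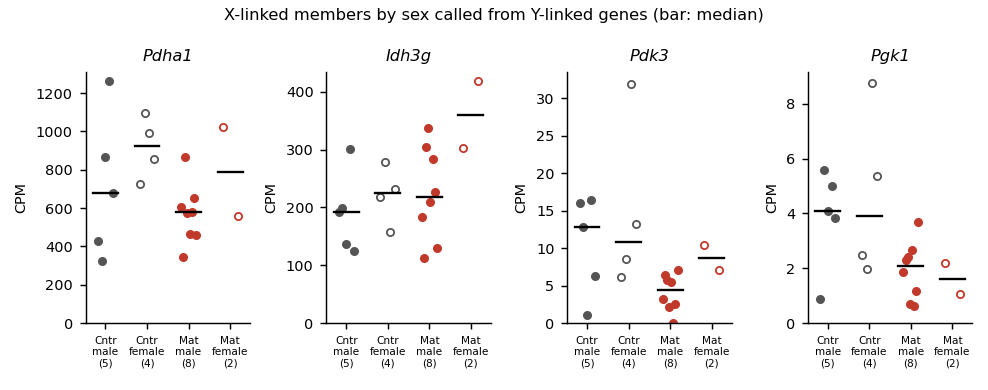
CPM of the 4 X-linked members in male (filled) and female (open) embryos of Ehmt2Cntr (grey) and Ehmt2Mat (red), sex called from Y-linked genes, with bars at the medians and the number of embryos in brackets. The 2 female mutants lie within or above the range of the 8 male mutants for Pdha1, Idh3g and Pdk3.

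Within the Ehmt2Mat group, the 5 embryos without a functional zygotic copy were compared with the 5 that had one. None of 41 members and none of 12195 genes was called by edgeR, beside 270 genes (2.21%) at an unadjusted p under 0.05, and DESeq2 called 3 genes (0.0246%) and no member. In simulated data for this comparison, edgeR recovered 0% of genes changed 2-fold and 46.5% of genes changed 4-fold. The lack of calls therefore does not show that such changes are absent. Of the members, Idh3g (log2 fold change 0.64 ± 0.30) and Slc16a1 (-1.32 ± 0.54) had an unadjusted p under 0.05, and mutant 2, the embryo at 318 CPM of Slc16a1, is among the Ehmt2M/+ embryos. Aldoa had medians of 121 CPM in Ehmt2M/+ and 144 CPM in Ehmt2M/Z embryos and a log2 fold change of 0.04, with a 95% interval of -0.64 to 0.71. Cs had medians of 247 and 279 CPM and a log2 fold change of -0.03 (-0.54 to 0.48). Among controls, the 3 embryos of genotype +/- and the 6 of genotype +/+ differed in no member by edgeR, with 572 of 12646 genes (4.52%) at an unadjusted p under 0.05 and 3 genes (0.0237%) called by DESeq2. Dlat, Idh1 and Pdk1 were the members at that level. In simulated data for the controls, edgeR recovered 0% of genes changed 2-fold and 23.3% of genes changed 4-fold. The 3 heterozygotes and the 6 wild types did not overlap for 4 of 41 members, beside 2.7% of all genes. For Dlat, Idh1 and Sucla2 the heterozygotes (15.6 to 22.1, 19.4 to 55.9 and 143 to 159 CPM) lay below the wild types (28.1 to 79.6, 81.5 to 120 and 175 to 302 CPM), and for Pfkl they lay above.

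Genes of the neighbouring pathways were read from a list of 67, of which 47 passed the filter. Of these, 3 were called higher and 2 lower, or 10.6% beside 9.35% of all genes, with a median log2 fold change of 0.02. The pentose phosphate pathway, which branches off at glucose 6-phosphate and makes NADPH and ribose, held calls in opposite directions. G6pdx, its X-linked entry enzyme, fell by 1.24 ± 0.33 on the log2 scale (17.3, 44.1 and 77.9 CPM in controls and 8.84, 17.5 and 38.7 CPM in mutants, adjusted p = 0.019). With sex as a covariate in edgeR, its log2 fold change was -1.22 at 10 CPM (adjusted p = 0.025) and -1.30 at 1 CPM (adjusted p = 0.026). Pgd, the next dehydrogenase, rose by 0.78 ± 0.23 (199, 332 and 613 CPM against 337, 591 and 1226 CPM, adjusted p = 0.034). Tkt, transketolase, which returns pentoses to glycolysis, rose by 2.10 ± 0.41 (34.4, 48.5 and 121 CPM against 55.6, 202 and 850 CPM, adjusted p = 0.0024), with 7 of 10 mutants above every control. Pdhx, which binds Dld to the pyruvate dehydrogenase core, was called higher (0.75 ± 0.20, adjusted p = 0.021) while the 6 pyruvate dehydrogenase members had negative values. Pdhx had 35.9, 70.7 and 92.4 CPM in controls and 69.3, 117 and 176 CPM in mutants. Me1, the cytosolic malic enzyme, which uses the malate that Mdh1 makes, fell by 1.02 ± 0.29 (adjusted p = 0.026), and 8 of 10 mutants lay below every control. Me1 had 53.7, 75.8 and 119 CPM in controls and 10.8, 42.0 and 76.5 CPM in mutants.

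The sequence before the start sites of Aldoa and Cs is given because these were the members called. RefSeq (GRCm38.p6) lists 3 starts for Aldoa and 1 for Cs, and the 250 bases before a start are printed 5′ to 3′ on the gene's strand, with capitals for motif matches on either strand. The motifs searched were ACGTG, with its palindromic form CACGTG counted in it, the GC box GGGCGG, and the box spelled CCAAT.
Aldoa, chr7:126799255-126799504, minus strand: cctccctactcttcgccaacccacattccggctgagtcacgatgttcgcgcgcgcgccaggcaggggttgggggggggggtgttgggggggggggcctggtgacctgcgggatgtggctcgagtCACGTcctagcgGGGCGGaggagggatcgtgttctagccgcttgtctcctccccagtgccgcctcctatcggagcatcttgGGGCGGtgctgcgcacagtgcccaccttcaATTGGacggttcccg
Cs, chr10:128337477-128337726, plus strand: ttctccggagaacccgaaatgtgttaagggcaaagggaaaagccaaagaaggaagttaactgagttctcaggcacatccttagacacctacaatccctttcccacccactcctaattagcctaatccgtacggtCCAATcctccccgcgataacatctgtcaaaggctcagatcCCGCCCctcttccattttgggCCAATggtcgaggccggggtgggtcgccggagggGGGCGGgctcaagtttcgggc
The printed Aldoa stretch holds 1 match of ACGTG, 2 of GGGCGG and 1 of CCAAT, the Cs stretch holds 2 of GGGCGG and 2 of CCAAT, and the stretch before the upstream Aldoa start (chr7:126800448-126800697) none of them. The stretch before the remaining Aldoa start (chr7:126799179-126799428) overlaps the printed one and is not shown. It holds 1 match of ACGTG, 3 of GGGCGG and 1 of CCAAT. Windows of 300 bases around the starts were found for 41 of 43 members, all but Slc2a3 and Idh3a. GGGCGG was present in 63.9% of the 61 member windows and in 35.7% of all 32851 windows, ACGTG in 42.6% and 19.6%, CACGTG in 11.5% and 7.2%, and CCAAT in 50.8% and 37.4%. All windows were taken whether or not the gene was expressed in these embryos, and no share over the genes tested was computed. These are counts of letters, and which start was used in the embryos was not tested.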

How the data were processed

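RNA-seq libraries of single 8-cell embryos were read as 9 Ehmt2Cntr and 10 Ehmt2Mat samples, grouped by the sample labels. The authors deposited raw counts per Ensembl gene, without normalization. The file headers record featureCounts 1.5.0 on exons of Ensembl release 82 (GRCm38), with an overlap of at least 10 bases, every overlapped gene counted, multi-mapping reads kept and no strand setting, on alignments named mm10.m1. The methods describe Tophat2 and another counter for genes. For repeats they describe bowtie with the option -m 1, which drops reads that align to more than 1 place, and featureCounts. Which of these alignments the gene counts came from is not stated, and with the latter, reads from sequence shared by several genes would be missing. Reads were single-end and 50 bases long.

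Counts were tested with edgeR 4.0.16 (R 4.3.3): filterByExpr, TMM and the quasi-likelihood test over 11754 genes, Benjamini-Hochberg adjusted, and called under 0.05. CPM used TMM-scaled library sizes. Gene symbols were matched for 34599 of 34937 IDs. Total counts of 8231646 to 30602434 set 3 counts at 0.0911 to 0.363 CPM. Tested on simulated data, edgeR recovered 15.5% of genes changed 2-fold and 61.6% of genes changed 4-fold between the maternal groups. It recovered 0% and 46.5% between the zygotic genotypes of Ehmt2Mat, and 0% and 23.3% between those of controls. With no gene changed, DESeq2 called 20 and 67 genes in these zygotic simulations, and edgeR 0. Each simulation was a single draw with edgeR's own dispersions. Where genes were changed, there were 185 to 196 of them, so the shares need not hold for data with more changes. Stretches of 50 bases were compared over GENCODE M21 transcripts. Alternatives were RLE and upper-quartile scaling, DESeq2 1.42.0, other filters, an embryo-number block, sex, +/- embryos only, thinned counts, a log2 fold change of at least 1, each embryo left out and, added after seeing the data, 5 embryos left out for Ovgp1. Every member was named. Full values were given for members called by edgeR, by DESeq2 or without the filter, for the 5 highest and 5 lowest by RPKM, and, of the neighbouring genes, for those called. The members and lists were chosen with earlier results of these data known. Ogdh, Mdh1, Mpc2, Pdk3, Pgk1, Gpi1 and others were given group values beyond that rule, after their values were seen.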

Additional observations from a re-analysis of the deposited data

Results flagged for a closer look

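In 6 of 82 groups of embryos (7.32%), the highest or lowest embryo of a member lay apart from the rest on log2(CPM + 1) by Dixon's test at the 95% level, which chance alone does in about 1 of 20 groups. The only high one was Slc16a1 in mutant 2, at 318 CPM with the next mutant at 67.2 CPM. The low ones were Dlst in control 5 (1.81 CPM, next 13.7), Fh1 in mutant 8 (1.09 CPM), Mpc2 in mutant 2 (151 CPM, next 269), Ogdh in mutant 10 (42.9 CPM, next 77.4) and Slc2a3 in mutant 7 (8.61 CPM, next 26.8). Mutant 2 thus had the highest Slc16a1 and the lowest Mpc2 of its group. The causes were not tested.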

How the results depend on the processing

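Aldoa and Cs were called higher in all 19 fits that left out an embryo, with adjusted p between 0.0073 and 0.019 for Aldoa and between 0.0031 and 0.021 for Cs (edgeR). In those fits, 2 to 3 members were called higher, 0 to 1 lower, and 884 to 1262 genes in all. Members called higher numbered 1 with a log2 fold change of at least 1 (Aldoa, of 667 genes), 1 without the 5 embryos above 300 CPM of Ovgp1 (Cs, of 465 genes) and 0 among zygotic +/- embryos (of 1 gene), where fewer embryos were tested. Members called lower numbered 2 in DESeq2 (of 1775 genes), 1 with at least 10 counts in every embryo (Sucla2, in a fit that called 19.2% of its genes and also 3 members higher, Aldoa, Cs and Slc16a1), 2 with sex at 1 CPM and 1 with sex at 10 CPM. The embryo number as a block kept 9 numbers, called 693 genes, and left 1 member higher (Aldoa, adjusted p = 0.041) and 1 lower (Sucla2, 0.049), with Cs at 0.051. Of members not called, it moved Pcx to 1.92, Slc16a3 to 0.72 and Slc2a1 to 1.20 on the log2 scale. The numbers did not pair the embryos, since same-numbered deviations correlated between -0.156 and 0.0856 and 0 of 9 pairs were above 0.1, and no control correlated best with the mutant of its number. For the zygotic comparisons no such block was possible, because the zygotic genotypes share no embryo numbers within a group. Over 1211 single-member values under alternatives, 1186 kept their side of the threshold without a shift of sign beyond the SE, and no call changed sign. The 42 changes of sign were in members not called. Of the 5 members highest by RPKM, 4 were also highest by CPM without length. In each zygotic comparison, where edgeR called 0 genes, DESeq2 called 3, and leaving out an embryo gave 0 members and at most 1 gene. Few counts limit Gapdh, Pfkm, Aldoc, Slc16a3 and Slc2a1 most.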
